A study of Mus musculus with 4 samples.

Results

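The regions described here are places in the mouse genome where a signal for the transcription factor WT1 was called in both of 2 kidney samples, but with low agreement between them, and where the midpoint lay at the end of a gene. The authors' table of regions found in both samples gives 1 value per region that was read as the irreproducible discovery rate (IDR), an estimate of how likely a region is not to be repeatable, so that a high value marks a weaker region. The members were chosen by this measured value and by place: a region was taken when its IDR was above 0.05, when it lay on chromosomes 1 to 19 and when its midpoint was within 1 kb of either end of a protein-coding RefSeq gene. This gave 1602 regions of 17234 in the table, and of 12638 regions above 0.05 on those chromosomes. Regions at gene ends with an IDR of 0.05 or lower, called reproducible here, numbered 848 of 4360 on the same chromosomes and serve as the comparison. The question was which gene classes (housekeeping, kidney and developmental) the weaker regions add to those already reached by the reproducible ones.

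WT1 is a zinc-finger protein that is needed for the kidney to form. It is made in the mesenchyme and nephron progenitors of the embryonic kidney and later in podocytes, the cells that hold the filtration slits of the glomerulus. It binds GC-rich sequence and can raise or lower transcription of its targets, and sites near gene starts fall in promoters, the stretches from which transcription begins. Housekeeping genes are used by nearly every cell and mostly have promoters rich in the dinucleotide CpG.

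Chromatin immunoprecipitation with sequencing (ChIP-seq) had been performed on kidneys microdissected at stage E18.5 from wild-type embryos, whose mixed background came from C57Bl6 crossed with B6DBA/F1. The study has 2 samples with the WT1 (C-19) antibody from Santa Cruz and 2 with IgG; peak lists of the WT1 samples and the table of shared regions were used. IgG data were not analysed here. The labels number the WT1 samples 1 and 2 and do not say whether they came from separate litters or how many kidneys each held, so the spread between them may be technical. Whole kidneys were used, so a region occupied in few cells and one weakly occupied in many cannot be told apart.

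The sequences that follow show what a promoter under a weaker region looks like in each class. They are the 250 bases before the RefSeq start (GRCm38.p6, coordinates counted from 1), 5′ to 3′ on the gene's own strand, for the 3 genes per class with the lowest IDR whose weaker region overlapped the promoter window. Capitals mark a WT1-type site (GNGNGGGAG) or an EGR-type site (GCGNGGGCG) on either strand, EGR proteins being zinc-finger factors with a related binding sequence. The first 3 genes are housekeeping genes: Mrpl48 encodes a protein of the mitochondrial ribosome, Taf1b a subunit of the RNA polymerase I initiation complex and Psme3ip1 a protein that binds a proteasome activator. The next 3 are kidney genes of the nephron progenitor list: Dpf3 encodes a chromatin remodelling subunit, and Meox2 and Hoxa11 are homeobox genes. The last 3 are developmental genes: Hoxa2 patterns the hindbrain and branchial arches, and Epha5 and Efna3 encode an ephrin receptor and an ephrin ligand.
Mrpl48, chr7:100608302-100608551, minus strand: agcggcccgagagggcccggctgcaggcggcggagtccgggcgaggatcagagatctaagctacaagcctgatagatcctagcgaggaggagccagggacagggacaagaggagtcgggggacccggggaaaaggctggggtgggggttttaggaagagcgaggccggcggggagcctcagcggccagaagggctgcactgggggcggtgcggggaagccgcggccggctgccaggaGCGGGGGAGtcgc
Taf1b, chr12:24498331-24498580, plus strand: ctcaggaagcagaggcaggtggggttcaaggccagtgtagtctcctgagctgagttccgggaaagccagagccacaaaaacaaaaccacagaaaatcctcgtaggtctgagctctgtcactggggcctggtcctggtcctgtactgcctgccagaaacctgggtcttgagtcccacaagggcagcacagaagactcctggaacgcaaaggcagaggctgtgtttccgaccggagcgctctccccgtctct
Psme3ip1, chr8:94601727-94601976, minus strand: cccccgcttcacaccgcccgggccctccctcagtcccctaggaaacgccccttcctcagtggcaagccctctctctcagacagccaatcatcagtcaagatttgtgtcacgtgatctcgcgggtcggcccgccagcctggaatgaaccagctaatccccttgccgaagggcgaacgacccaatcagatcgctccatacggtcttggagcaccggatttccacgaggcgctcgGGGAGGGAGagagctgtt
Dpf3, chr12:83487737-83487986, minus strand: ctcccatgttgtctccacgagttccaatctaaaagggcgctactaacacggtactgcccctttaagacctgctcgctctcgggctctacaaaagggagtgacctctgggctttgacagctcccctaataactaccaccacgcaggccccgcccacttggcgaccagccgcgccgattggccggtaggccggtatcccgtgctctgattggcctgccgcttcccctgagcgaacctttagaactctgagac
Meox2, chr12:37108290-37108539, plus strand: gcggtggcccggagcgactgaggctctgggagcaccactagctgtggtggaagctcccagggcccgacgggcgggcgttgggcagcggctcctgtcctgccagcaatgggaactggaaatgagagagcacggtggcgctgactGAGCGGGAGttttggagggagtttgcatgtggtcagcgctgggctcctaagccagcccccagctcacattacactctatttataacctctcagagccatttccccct
Hoxa11, chr6:52245811-52246060, minus strand: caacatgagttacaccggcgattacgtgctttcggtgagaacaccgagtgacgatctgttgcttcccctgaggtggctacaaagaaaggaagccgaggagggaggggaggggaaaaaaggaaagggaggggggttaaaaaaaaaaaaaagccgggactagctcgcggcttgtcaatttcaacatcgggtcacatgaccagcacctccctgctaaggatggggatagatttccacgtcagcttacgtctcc
Hoxa2, chr6:52164832-52165081, minus strand: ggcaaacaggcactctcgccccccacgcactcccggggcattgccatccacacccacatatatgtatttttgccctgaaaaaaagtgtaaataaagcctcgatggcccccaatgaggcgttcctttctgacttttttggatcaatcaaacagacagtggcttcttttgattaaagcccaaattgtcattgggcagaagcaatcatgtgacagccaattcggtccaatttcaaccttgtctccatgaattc
Epha5, chr5:84417383-84417632, minus strand: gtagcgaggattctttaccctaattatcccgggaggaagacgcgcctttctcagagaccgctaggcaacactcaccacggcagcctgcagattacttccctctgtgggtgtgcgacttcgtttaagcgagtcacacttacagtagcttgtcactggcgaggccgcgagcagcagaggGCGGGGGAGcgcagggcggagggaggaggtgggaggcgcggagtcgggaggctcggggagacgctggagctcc
Efna3, chr3:89322940-89323189, minus strand: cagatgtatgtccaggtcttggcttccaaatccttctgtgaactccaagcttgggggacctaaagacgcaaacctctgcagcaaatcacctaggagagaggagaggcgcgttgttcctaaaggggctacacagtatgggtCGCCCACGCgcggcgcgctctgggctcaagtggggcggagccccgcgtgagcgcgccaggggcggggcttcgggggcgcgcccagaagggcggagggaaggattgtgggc

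Of these 9 stretches, 4 held a WT1-type site (Mrpl48, Psme3ip1, Meox2 and Epha5) and 1 an EGR-type site (Efna3). The stretches of Taf1b, Dpf3, Hoxa11 and Hoxa2 held neither. The site lay inside the part covered by the weaker region in Mrpl48, Psme3ip1, Meox2 and Epha5, and outside it in Efna3. In Mrpl48 the weaker region covered bases 182 to 250 of the stretch, in Psme3ip1 bases 115 to 250 and in Meox2 bases 131 to 250. The region covered bases 161 to 250 in Hoxa11, 61 to 250 in Hoxa2 and 50 to 250 in Epha5. Farther from the start, it covered bases 29 to 213 in Dpf3, 1 to 147 in Taf1b and 1 to 85 in Efna3. The number of CpG in the stretch ranged from 6 in Hoxa2 to 21 in Mrpl48, so the examples span CpG-poor and CpG-rich promoters.

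The weaker regions were unequal in the 2 samples. Each peak carries a significance value given by the authors, read as a p-value or q-value, for which a smaller number is stronger. At the 1602 weaker regions the median value was 0.0173 in replicate 1 (quartiles 0.00584 and 0.0314) and 0.0014 in replicate 2 (quartiles 3.8e-05 and 0.0102). A value of 0.001 or lower was reached by 7.99% of them in replicate 1 and by 46.2% in replicate 2. Replicate 2 had the smaller value at 1273 of 1602 weaker regions (79.5%, exact Clopper-Pearson 95% interval 77.4 to 81.4) and at 793 of the 848 reproducible ones (93.5%). Intervals here cover counting error only. These values entered the IDR and are given as a description without a test.

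Single regions show the same lean. At Thbs1, which encodes the matrix protein thrombospondin, the value was 0.0157 in replicate 1 and 3.05e-21 in replicate 2, at an IDR of 0.501. At Vcpkmt, a lysine methyltransferase gene, the values were 0.0261 and 7.27e-20. The regions with the smallest value in either replicate, at Thbs1, Vcpkmt, Nedd4, Trabd2b and Map3k3, all had it in replicate 2. The highest IDR, 0.555, was shared by the regions at Plin3, Hmgn2, Washc1, Pde1b and Tnks. In replicate 1 the peak under the Hmgn2 region had a value of 0.0436, and in replicate 2 it had 5.63e-13. The table's IDR did not follow the 2 values strictly: the region at Atp8b1, with 0.0314 and 0.0156, had an IDR of only 0.0534. Both values exceeded 0.01 in 6 of 169 regions with an IDR of 0.05 to 0.1, against 153 of 568 above 0.4.

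**Figure D1:**
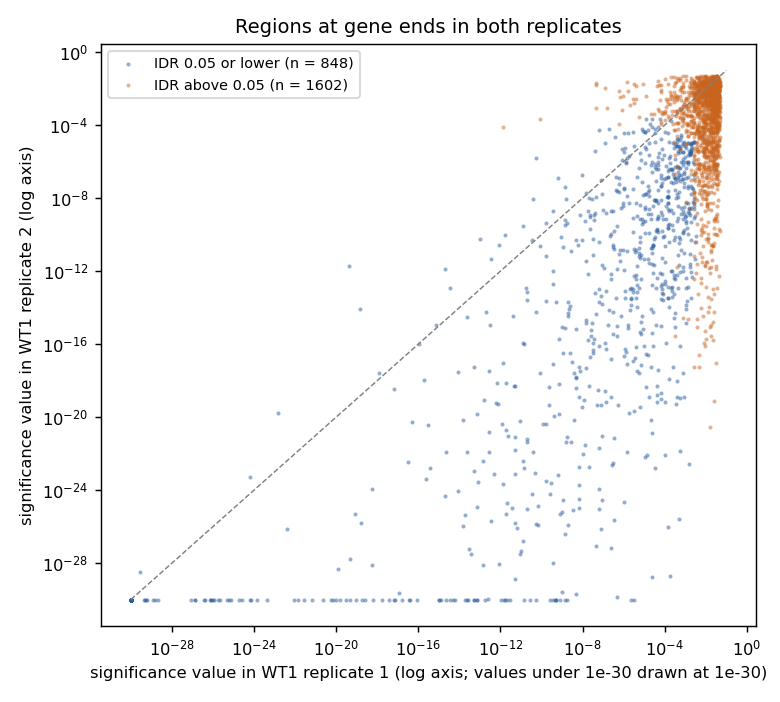
Significance values in WT1 replicate 1 (x, log axis) and replicate 2 (y, log axis) for each region at a gene end, weaker (orange, n = 1602) and reproducible (blue, n = 848), with values under 1e-30 drawn at 1e-30. Points under the dashed line have the smaller value in replicate 2, as 1273 of the weaker regions do.

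The threshold cut through a continuous range. Just above it stood the weaker regions at Atf2, a leucine zipper factor, at 0.0507 with values of 0.000281 and 1.19e-05, and at the anion exchanger gene Slc4a3, at 0.051 with 0.00113 and 9.78e-06. Just below the threshold stood Alkbh2, a DNA repair enzyme, at 0.0499 with values of 0.000199 and 0.000166, and Zkscan6 at 0.0498, Sh3bgr at 0.0497, Kpna1 at 0.0496 and Ugt1a6a at 0.0494. Also among the 10 weaker regions with the lowest IDR were those at Cltc, Plpp5, Mrpl48, S1pr2, Cd24a, Atp8b1 and Fam20a, at 0.0521 to 0.0538.

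Gene ends were a smaller part of the weaker regions than of the reproducible ones. Of all weaker regions on chromosomes 1 to 19, 12.7% lay at a gene end (interval 12.1 to 13.3), against 19.4% of the reproducible regions (18.3 to 20.7). By band of IDR the share was 19.8% up to 0.01, 18.7% from 0.01 to 0.05 and 15% from 0.05 to 0.1. Above 0.1 it changed little, at 12.4% from 0.1 to 0.2, 13.2% to 0.3, 12.9% to 0.4 and 11.9% above 0.4. The reference gave the direction of the nearest gene for 1263 of the 1602 weaker regions. Of these, 1114 (88.2%, 86.3 to 89.9) were nearest to the start, against 619 of 687 reproducible regions (90.1%, 87.6 to 92.2). Both kinds of region thus lay mostly near starts.

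At the start, 538 of 1114 weaker regions (48.3%, 45.3 to 51.3) had their midpoint before it, against 343 of 619 reproducible regions (55.4%, 51.4 to 59.4). The distance to the nearest end had a median of 324 bp (quartiles 158 and 605) for weaker and 297 bp (140 and 555) for reproducible regions. Weaker regions were narrower, with a median width of 207 bp (quartiles 158 and 280) against 339 bp (250 and 462). Ends of 2 or more genes fell within 1 kb of 193 weaker regions (12%), so one region can count for several genes. The extreme was a weaker region at chr18:37842569-37842782 (IDR 0.307) at the shared end of the gamma protocadherins, neuronal adhesion genes, which touched 25 genes. A reproducible region beside it touched 24, so its genes entered the classes below as already reached.

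**Figure D2:**
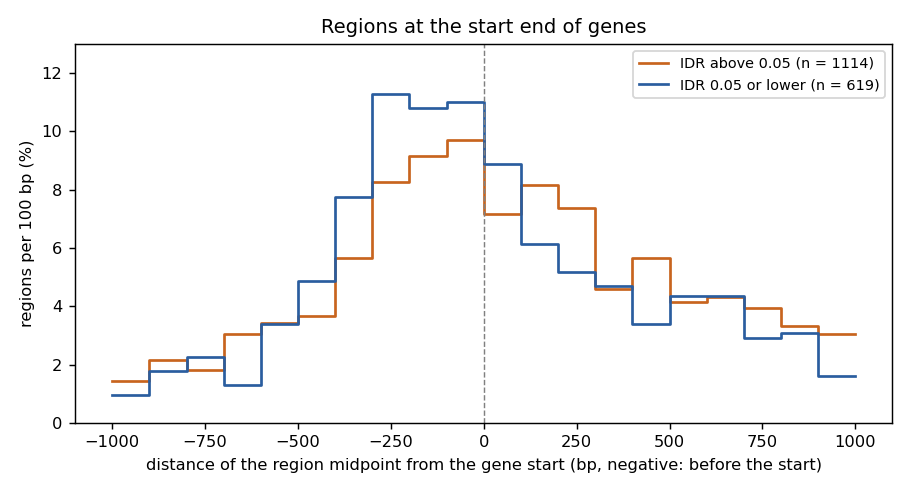
Share of regions (y, % per 100 bp) by distance of the midpoint from the gene start (x, bp), for 1114 weaker (orange) and 619 reproducible (blue) regions nearest to a start. Both outlines peak within 300 bp before the start, and 48.3% of weaker against 55.4% of reproducible regions lie before it.

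Of 20665 protein-coding genes on chromosomes 1 to 19, 1641 had a weaker region within 1 kb of an end (7.94%) and 888 a reproducible one (4.30%). Both kinds lay at 219 genes (1.06%). The weaker regions thus added 1422 genes, 6.88% of all genes, that had no reproducible region within 1 kb. For 1156 of these (5.59%) there was also none within 10 kb or inside the gene. Most genes with a weaker region had 1 (1476 genes), 148 had 2 and 17 had 3 or more.

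The 6.88% is the background for each class below. Housekeeping genes were added at about that share, and kidney and developmental genes at higher shares. Genes of other tissues, mostly olfactory, vomeronasal and taste receptor genes, were added at a far lower one. Within CpG-rich promoters this differed, as given below. Among 1124 housekeeping genes 76 were added (6.76%, 5.36 to 8.39), among 215 kidney genes 27 (12.6%, 8.44 to 17.7) and among 702 developmental genes 83 (11.8%, 9.53 to 14.4). The reproducible regions, read against their 4.30%, reached 50 housekeeping (4.45%), 25 kidney (11.6%) and 62 developmental genes (8.83%). Relative to all genes, the weaker regions stood at 0.983 for housekeeping, 1.82 for kidney and 1.72 for developmental genes, and the reproducible ones at 1.04, 2.71 and 2.06. The difference between these ratios was not tested. A gene with a reproducible region cannot count as added, so a high reproducible share of a list lowers its added share by construction. Counting genes with any weaker region, against 7.94% of all genes, the shares were 7.83% for housekeeping, 15.8% for kidney and 15% for developmental genes. In all, 46 lists and families were counted, no enrichment test was run, and genes that share a region are not independent.

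**Figure D3:**
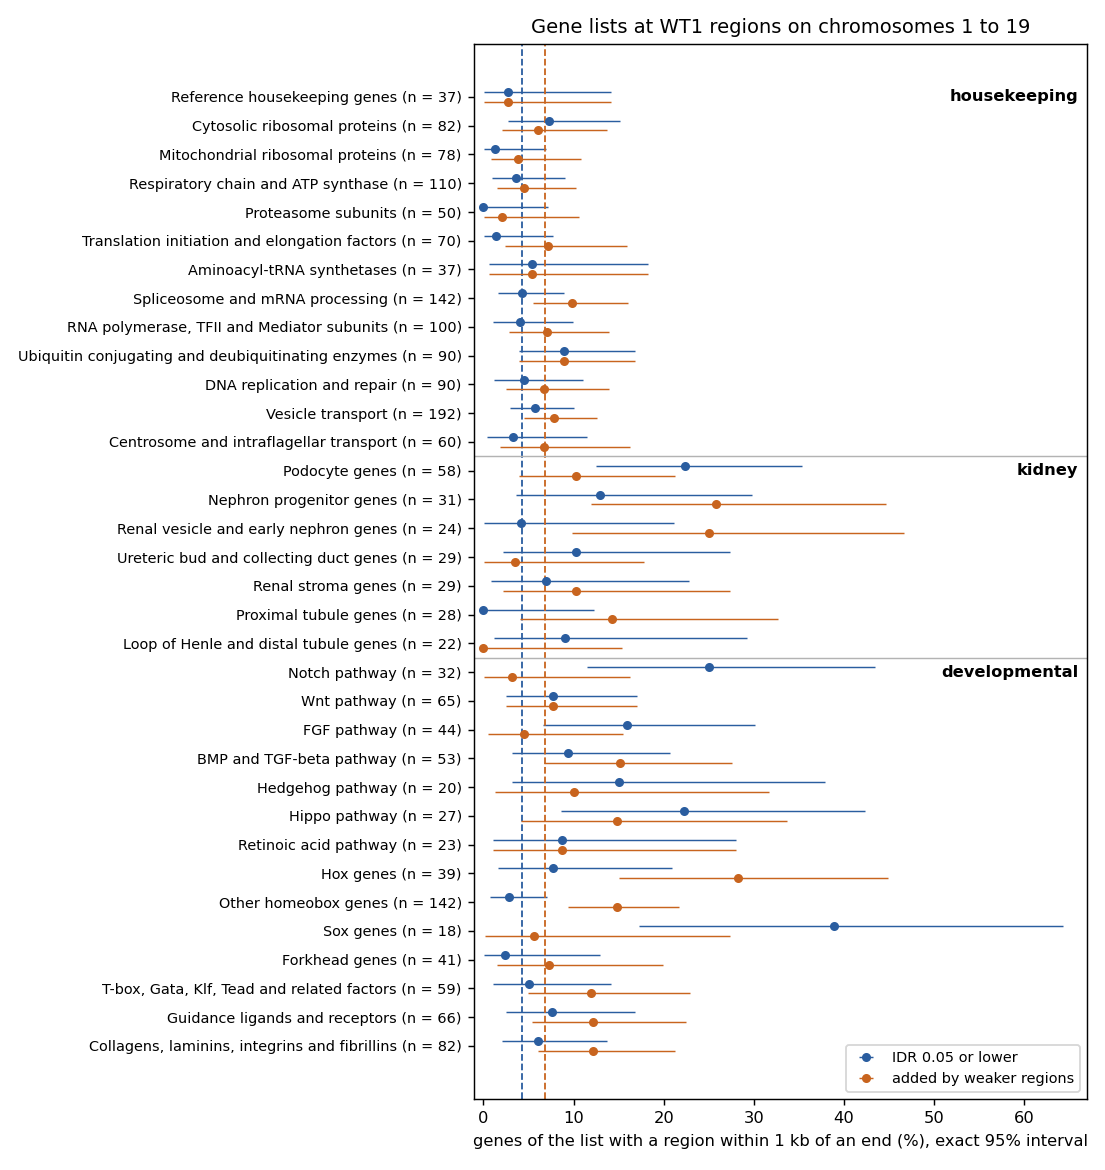
Share of each list's genes (x, %) with a reproducible region (blue) and added by weaker regions (orange), with exact 95% intervals and dashed lines at the shares of all genes, 4.30% and 6.88%. Hox, other homeobox and nephron progenitor genes lie to the right in orange, while podocyte, Notch and Sox genes lie to the right in blue.

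Among the kidney genes, the weaker regions added nephron progenitor and early nephron genes, while the larger count of podocyte genes was reached by reproducible regions. Nephron progenitors are the self-renewing cells that give rise to the nephron. Of 31 progenitor genes, 8 were added (25.8%, 11.9 to 44.6) and 4 were reached by reproducible regions (12.9%, 3.63 to 29.8), with intervals that overlap. Relative to all genes these shares stood at 3.75 and 3, so reproducible regions also reached progenitor genes above their background. Among the added genes were Dpf3, Meox2, Hoxa11, Sall1, Six4, Hoxd11 and Lypd1. The regions of Hoxd11 and Lypd1 lay outside the gene at its far end, at IDRs of 0.456 and 0.545. At Dpf3, chr12:83487774-83487958, the IDR was 0.0694 with values of 0.0043 and 1.42e-06. The zinc-finger gene Sall1, needed for ureteric bud invasion, carried 3 weaker regions, the best at an IDR of 0.242. Six4, a homeobox gene, had an IDR of 0.267 with 0.0371 and 0.0469.

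The renal vesicle is the first epithelial stage of the nephron. Of its 24 listed genes 6 were added (25%, 9.77 to 46.7), against 1 reached by a reproducible region (4.17%, 0.105 to 21.1), with intervals that overlap. The added genes were Pax8, Lef1, Irx3, Sox9, Papss2 and Emx2. The Papss2 region lay outside the gene at its far end, at an IDR of 0.456. The paired-box gene Pax8 had an IDR of 0.235 at chr2:24475697-24476058, with 0.00531 in replicate 1 and 1.03e-11 in replicate 2, so that only replicate 2 called it strongly. At Lef1, a mediator of Wnt signals, the values were 0.0371 and 0.000959, and at Irx3 they were 0.0145 and 3.89e-06. Proximal tubule genes, of which no reproducible region reached any of 28, gained 4 (14.3%, 4.03 to 32.7). These were Fbp1 and Pck1, enzymes of gluconeogenesis, and Anpep and Mme, peptidases of the brush border. Fbp1 had an IDR of 0.187 with 0.0106 and 5.61e-06. Both values exceeded 0.01 at Pck1 (0.0322 and 0.0143), Anpep (0.0261 and 0.0197) and Mme (0.0215 and 0.0205), at IDRs of 0.333, 0.363 and 0.488. The Pck1 region lay outside the gene, 995 bp from its far end. All intervals of these kidney lists are wide because the lists are short.

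Of 58 podocyte genes, 13 were reached by reproducible regions (22.4%, 12.5 to 35.3) and 6 were added (10.3%, 3.89 to 21.2), with intervals that overlap, and 10 had any weaker region (17.2%). Of the 6, Col4a3 and Col4a4 share 1 region at chr1:82586319-82586533, inside Col4a4 near its start. These genes encode collagen chains of the glomerular basement membrane, and the region had an IDR of 0.188 with values of 0.0118 and 0.00043. Lamb2 encodes the laminin beta chain of the same membrane, and its region had an IDR of 0.403 with 0.0314 and 0.0112. The others were Rhpn1, the cytoskeletal linker Tln1 and the phospholipase gene Plce1. Parva, Nes, Sema3g and Fyn had a weaker and a reproducible region and were not added. The ureteric bud list gained 1 of 29 genes, Emx1, the renal stroma list 3 of 29 (Sall1, Foxd1 and Dcn) and the loop of Henle list none of 22.

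Among developmental genes the weaker regions added homeobox genes. The Hox genes give cells their position along the body axis. Of 39, 11 were added (28.2%, 15 to 44.9), against 3 with a reproducible region (7.69%, 1.62 to 20.9). Hoxa2 had the lowest IDR, 0.0608, at chr6:52164821-52165021, with 0.00266 and 1.42e-06. Next came Hoxa4 at 0.109 and Hoxc9 at 0.115, with values in replicate 1 of 0.00824 and 0.00893 and the same 1.19e-05 in replicate 2. Hoxa11, whose region was centred on the start, followed at 0.162 with 0.00285 and 0.00479. The remaining added genes were Hoxa5, Hoxb1 and Hoxd4, Hoxd8, Hoxd9, Hoxd11 and Hoxd12, at 0.206 to 0.52. Hox genes stand close together, and the region for Hoxd12, Hoxd4, Hoxd9, Hoxd11 and Hoxa5 lay at the far end of the gene rather than its start.

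Of 142 other homeobox genes 21 were added (14.8%, 9.39 to 21.7), against 4 with a reproducible region (2.82%, 0.773 to 7.06), and the 2 intervals did not overlap. The lowest IDR was at Nkx2-2, a neural tube and pancreas factor, at 0.0888 with 0.00432 and 3.64e-05. Otx1 had an IDR of 0.101 and Shox2 0.14. Forkhead genes gained 3 of 41, and the family of T-box, Gata, Klf, Tead, Runx, Twist and Id factors gained 7 of 59 (11.9%). Of 18 Sox genes, 7 were reached by reproducible regions (38.9%, 17.3 to 64.3) and 1, Sox9, was added (5.56%, 0.141 to 27.3). At Sox9 the IDR was 0.433, with 0.023 and 0.00115. Sox5 and Sox2 had a weaker and a reproducible region, so 3 Sox genes (16.7%) had any weaker one.

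Members of each signalling pathway counted were among the added genes. As 42 of the 46 lists and families had an added gene, this alone does not set the pathways apart. Of 53 BMP and TGF-beta genes 8 were added (15.1%, 6.75 to 27.6), against 5 with a reproducible region (9.43%), and 9 had any weaker region (17%). Smad4, the common mediator of both branches, had an IDR of 0.0635 with 0.0043 and 3.95e-06. Smad5, a BMP-specific mediator, had 0.105 with 0.0314 and 0.00886, and the receptor gene Bmpr1a had 0.134 with 0.00845 and 1.97e-08. The ligand gene Tgfb3, the BMP antagonist Chrd, the co-receptor Tgfbr3, the inhibitor Smad6 and the target Id3 followed at 0.178 to 0.39. The Id3 region lay inside the gene, 286 bp from its far end. The inhibitor Smad7 had a weaker region at 0.0617 but also a reproducible one.

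The Notch pathway, which signals between touching cells, had 8 of 32 genes with a reproducible region (25%, 11.5 to 43.4) and 1 added (3.12%, 0.0791 to 16.2). Any weaker region lay at 4 of them (12.5%, 3.51 to 29), against 7.94% of all genes. The added gene was Numb, an inhibitor of the receptor, with a region 472 bp outside its far end, at 0.0775 with 0.000315 and 2.22e-07. The other 3, the target genes Hes1, Heyl and Hey2, also had a reproducible region. FGF genes gained Fgfr3 and Fgfr2, 2 of 44 (4.55%), against 7 reached by reproducible regions (15.9%), and 5 had any weaker region (11.4%). Of 65 Wnt genes 5 were added (7.69%), the receptors Fzd2 and Fzd4, the ligand Wnt5b, the ligand transporter Wls and Lef1. As many Wnt genes, 5, had a reproducible region. The Hippo list gained 4 of 27 (14.8%), Tead1, Wwc2, Frmd6 and Stk4, against 6 with a reproducible region (22.2%). Hedgehog gained the co-receptors Boc and Cdon, 2 of 20 (10%), against 3 with a reproducible region (15%). Retinoic acid gained Rxrb and Dhrs3, 2 of 23 (8.7%), against 2 with a reproducible region (8.7%). Over all genes 6.88% were added and 4.30% had a reproducible region.

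Matrix and guidance genes were added at similar shares. Of 82 collagen, laminin, integrin and fibrillin genes 10 were added (12.2%), among them the integrin gene Itga5 at 0.0843 (0.0047 and 7.8e-05). The integrin gene Itgb8 had a weaker region at 0.066 (0.00432 and 3.41e-06) but also a reproducible one, so it was not added. Of 66 genes for ephrins, semaphorins, plexins and related guidance molecules 8 were added (12.1%). Among them Epha5 had values of 0.000473 and 0.00014 at an IDR of 0.0673, and Efna3 had 0.0314 and 0.0156 at 0.0723.

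Housekeeping genes, added at 6.76% against the 6.88% of all genes, came from all lists of the class. Of 142 spliceosome and mRNA processing genes 14 were added (9.86%, 5.5 to 16). Ubiquitin enzymes gained 8 of 90 (8.89%), vesicle transport genes 15 of 192 (7.81%) and translation factors 5 of 70 (7.14%). Cytosolic ribosomal protein genes gained 5 of 82 (6.1%), the respiratory chain 5 of 110 (4.55%), mitochondrial ribosomal proteins 3 of 78 (3.85%) and the proteasome 1 of 50. Families were matched by symbol, and some added members are not core components. Psme3ip1 is the only proteasome entry, Eef2k encodes a kinase, Eef1akmt1 a methyltransferase, and Ndufaf7 and Uqcc1 assembly factors.

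Some housekeeping genes shared their region with a neighbour, which was not counted for the class. Of all 1602 weaker regions, 193 (12%) had ends of 2 or more genes within 1 kb. With the nearest gene only, 61 housekeeping genes were added in place of 76. Their ratio to all genes was then 0.867 in place of 0.983. The Mrpl48 region at chr7:100608063-100608370 had an IDR of 0.0524, with 2.08e-05 in replicate 1 and 0.00043 in replicate 2, so that here replicate 1 was the stronger. It also lies near the start of Rab6a, a Golgi trafficking gene that had a reproducible region as well. The Rps25 region (IDR 0.0615, values 0.000281 and 5.23e-05) is nearer to the vesicle transport gene Trappc4. The Rpl19 region (0.304, values 0.00796 and 1.2e-16) also touches the calcium channel gene Cacnb1. Regions near a single listed gene included Taf1b at 0.0566 (0.00145 and 4.87e-05), with no other gene within 1 kb. The ubiquitin-conjugating enzyme gene Ube2d3 had 0.0628 with 0.00347 and 1.24e-06. Of 37 reference housekeeping genes, those used to normalise expression, 1 was added, Tubb5 at 0.412.

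Genes of other tissues were added at the lowest share of the classes. Of 2024 such genes 20 were added (0.988%, 0.605 to 1.52) and 9 had a reproducible region (0.445%). Few of them have a CpG-rich promoter, and among the 43 that do 4 were added (9.3%), beside 9.65% of all genes with such a promoter. Of the 20 added genes, 13 belonged to the family of defensins, immunoglobulin-like receptors and lectins of immune cells, in which 13 of 346 were added (3.76%, 2.02 to 6.34) and 5 had a reproducible region (1.45%). That family includes Cd24a at 0.0529 and Il1rl2 at 0.088. In the short marker lists no weaker or reproducible region reached any of 22 immune, 20 neuronal or 24 liver genes. Of 1100 olfactory receptor genes 3 were added (0.273%), and of 390 vomeronasal and taste receptor genes 1 was (0.256%). These receptor genes make up most of the 2024, so the share of the class mostly reflects theirs. The endothelial list gained 1 of 25 genes, the ETS factor Erg, at 0.114 with 0.00107 and 0.00115.

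Class shares varied along the IDR with wide intervals. Kidney genes lay at 4% of gene-end regions up to an IDR of 0.01, at 1.1% from 0.01 to 0.05, at 0.592% from 0.05 to 0.1, and at 3.52% above 0.4. Developmental genes lay at 9.39%, 5.49%, 9.47% and 6.87% of the same bands, and housekeeping genes at 5.57%, 7.33%, 5.92% and 6.87%. In the bands 0.1 to 0.2, 0.2 to 0.3 and 0.3 to 0.4 kidney genes lay at 1.64%, 2.07% and 2.42%. Developmental genes lay there at 8.2%, 7.24% and 6.65%, and housekeeping genes at 3.28%, 5.17% and 5.74%. Above 0.05 the kidney share thus went up from band to band, with intervals that overlap, which was not tested. Over all weaker gene-end regions the shares were 5.68% housekeeping, 2.43% kidney and 7.37% developmental, against 6.13%, 3.07% and 8.14% of reproducible ones. For each class the weaker and reproducible intervals overlapped.

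**Figure D4:**
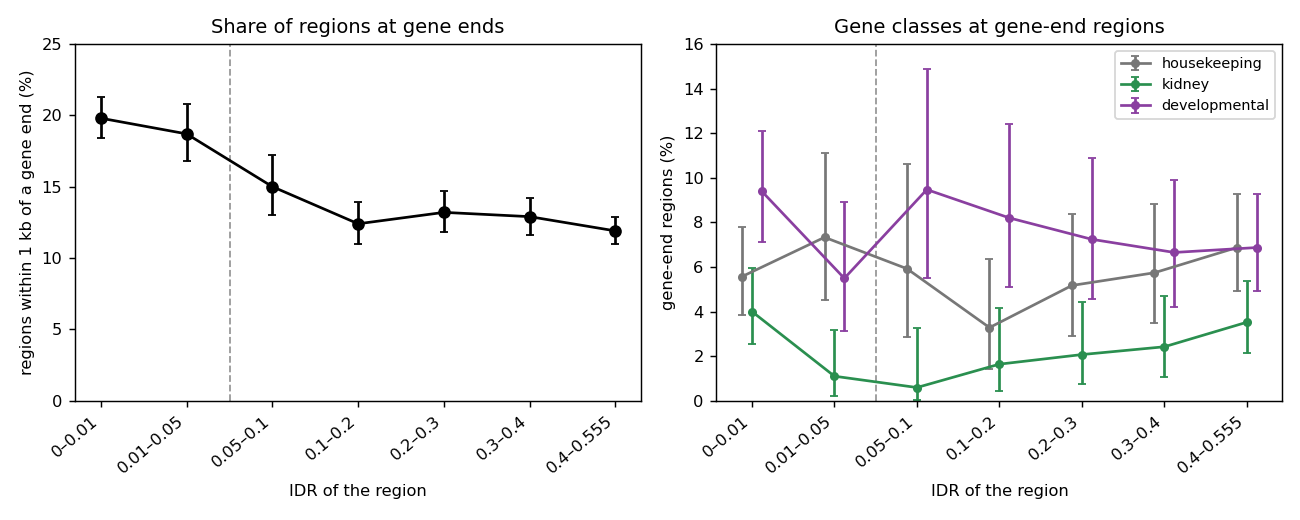
Left, share of regions at gene ends (y, %) by band of IDR (x), with exact 95% intervals and a dashed line at 0.05; right, share of those gene-end regions that touch a housekeeping, kidney or developmental gene. The left share goes from 19.8% to 11.9%, while the class shares on the right have overlapping intervals.

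Promoter sequence, which the rule did not use, was richer in CpG at the added genes than at genes with no region. RefSeq promoter windows of 300 bases were at hand for 16457 of the 20665 genes and for 1118 of the 1422 added ones. A window with 5 or more CpG per 100 bases was found for 69.3% of added genes (66.5 to 72), 72.5% of genes with a reproducible region (69 to 75.8), 48.8% of all genes and 46.1% of genes with neither. Among CpG-rich promoters 9.65% were added and 6.34% had a reproducible region, against 4.07% and 2.29% among CpG-poor ones. Within CpG-rich promoters, 7.14% of housekeeping (52 of 728), 13.6% of kidney (11 of 81) and 11.1% of developmental genes (37 of 332) were added. So were 9.3% of other-tissue genes (4 of 43), against the 9.65% of all. Among these promoters the housekeeping share was below the background and the developmental share close to it. The kidney share was above it but rests on few genes. No intervals were computed for these shares.

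Motifs were searched on both strands of the same windows. A WT1-type site (GNGNGGGAG) was found in 30.1% of added promoters (27.4 to 32.8), in 42.9% of promoters with a reproducible region (39.2 to 46.6), in 19.1% of all and in 17.2% with neither. An EGR-type site (GCGNGGGCG) was found in 15.2%, 16.8%, 7.69% and 6.67%. The SP/KLF box (GGGGCGGGG), bound by another zinc-finger family, was found in 24.8%, 27.6%, 16% and 14.7%, and the ETS site (CCGGAAG) in 13.6%, 13.2%, 12.3% and 12.1%. TATA boxes (TATAAA) were found in 6.53% of added and 13.5% of all promoters. The NRF1 site, the YY1 site and the CCAAT box were found in 1.52%, 1.07% and 39.5% of added promoters, against 1.37%, 0.99% and 39.1% of all. The motifs overlap in letters and with CpG content, and a match is not a bound site.

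Counted only over the promoter bases that a region covers, WT1-type sites stood at 1.77 per kb under weaker regions (1.48 to 2.1), 2.67 under reproducible regions (2.31 to 3.07) and 0.813 under neither (0.788 to 0.839). EGR-type sites stood at 0.674, 0.681 and 0.291 per kb, and SP/KLF boxes at 0.728, 0.912 and 0.699. Weaker regions lay between reproducible and uncovered bases in WT1-type sites, with intervals that did not overlap, and level with reproducible regions in EGR-type sites. Genes with a weaker region only at the far end (153) had a WT1-type site in 17.6% of promoters (12 to 24.6). That interval holds both the 17.2% of genes with neither and the 19.1% of all genes. Their promoter windows lie at the gene start, so sites under the far-end regions were not counted this way.

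**Figure D5:**
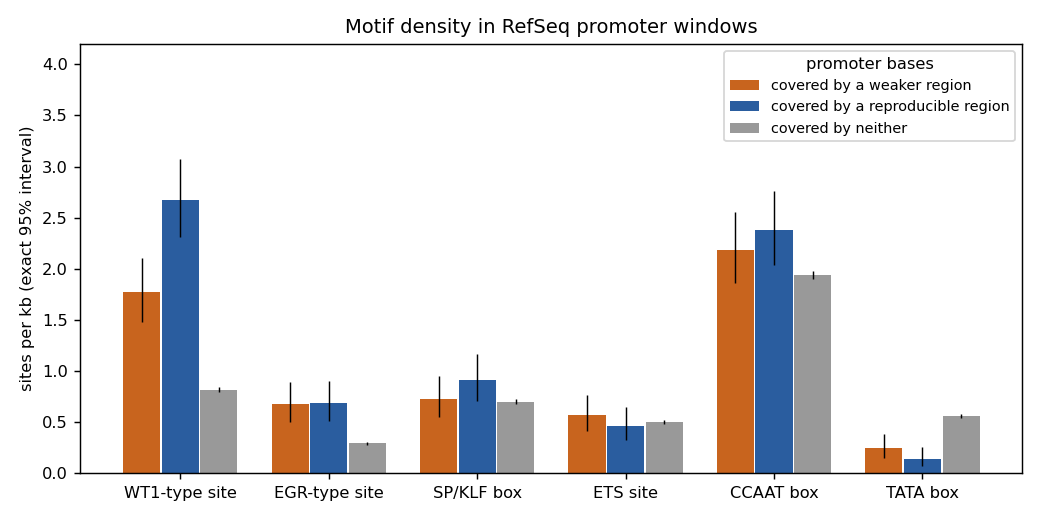
Motif density (y, sites per kb with exact 95% intervals) in RefSeq promoter bases covered by a weaker region (orange), a reproducible region (blue) or neither (grey), for 6 motifs (x). WT1-type sites stand at 1.77, 2.67 and 0.813 per kb, and SP/KLF boxes at 0.728, 0.912 and 0.699.

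The libraries were made by cutting the recovered DNA with MseI and either AluI or HaeIII, per the labels, which do not give the pair for each sample. Most edges of the weaker regions lay on none of these cut sites, but more lay on AluI and MseI cuts than the share of such positions. Of 617 edges of weaker regions inside promoter windows, 73 (11.8%, 9.39 to 14.6) lay on an AluI cut (AGCT), which makes up 0.522% of positions, and 24 (3.89%) on an MseI cut (TTAA), at 0.321% of positions. On a HaeIII cut (GGCC) lay 8 edges (1.3%, 0.561 to 2.54), an interval that holds the 0.616% of positions. Over all peaks of a sample, 10 of 1846 edges in replicate 1 lay on a HaeIII cut (0.542%, 0.26 to 0.994). In replicate 2 it was 34 of 3145 (1.08%, 0.75 to 1.51), an interval above that share of positions. AluI sites stood at 10.5 per kb under weaker regions, 9.71 under reproducible regions and 4.79 under neither. The part of this in the places and motifs above was not tested.

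Several genes carried more than 1 weaker region. Nab2, which encodes a corepressor of EGR factors, had 4. Those with 3 named here were Tmem129, Auts2, Dbp, Slbp, Tmem86a, Mmp14, Tuba1b, Sall1 and Mageb3. Not all of these regions are separate: Tmem129 and Slbp share chr5:33652109-33652475 and chr5:33652590-33652670, which lie outside the far end of Tmem129. Some regions of Dbp also lie near Car11, and some of Mageb3 near Ctdspl2. Mmp14 encodes a membrane-bound matrix protease and Dbp a circadian transcription factor.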

How the data were processed

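ChIP-seq for WT1 had been run on 2 samples, from mouse kidneys at stage E18.5, and data of 2 IgG samples were not analysed here. The deposited peak lists of each WT1 sample hold a p-value or q-value per peak, and the authors' table of regions found in both gives the value read as the IDR; which of p or q it is was not stated. For aligner, peak caller and versions: not given in the sources used here. Build: mm10, per the submitters' processing notes. Genes, starts and promoters came from RefSeq on GRCm38.p6, the assembly on which mm10 is based. The files used give no read totals, so the depth is unknown. Columns of per-sample values left unused numbered 0.

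Regions were placed by midpoint within 1 kb of a gene end, and a replicate's peak was matched to a region by at least 1 bp. Shares carry exact Clopper-Pearson intervals (95%). With 2 samples of one group there was no test between conditions. The scripts, checked on simulated data, used Python 3.11.15, pandas 2.3.3, numpy 2.4.6 and scipy 1.17.1. Region members, gene lists and families were chosen with earlier results of these data known; 613 of 627 listed symbols were matched. Named genes were, per list, up to 4 with the lowest IDR; the 10 lowest, 5 highest and 5 just under 0.05; the 10 genes with most weaker regions; and the 5 with the smallest value in either replicate. Other added genes of a list were named for completeness after their values were seen, and a few genes that the rule names are not reported here. Alternatives changed the window, the IDR limits, the placement of regions, the genes counted and the replicate used.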

Additional observations from a re-analysis of the deposited data

How the results depend on the processing

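Kidney genes kept an added share above that of all genes under all 14 alternatives (ratios 1.33 to 2.08). Developmental genes did too (1.16 to 2.03), while housekeeping genes ranged from 0.74 to 1.15. The lowest kidney ratio, 1.33, came with an IDR of up to 0.3 only and rested on 9 added genes. Of the 39 weaker gene-end regions at kidney genes, 20 had an IDR above 0.4, beside 568 of all 1602. At housekeeping genes 39 of 91 did, and at developmental genes 39 of 118. The kidney regions include some at genes that also had a reproducible region and were not added. These differences were not tested. The counts of 1602 weaker regions, 1641 genes and 1422 added genes became 4361, 4678 and 3679 with a 10 kb window, and 703, 749 and 652 with an IDR of up to 0.3 only. Using peaks of 1 replicate alone and leaving out the other, they ranged from 2998 to 5931, 2862 to 4896 and 2586 to 4404, being larger without WT1 replicate 1 in each case. Then the developmental ratio of 1.72 ranged from 1.34 to 1.48 and that of other tissues, 0.144, from 0.172 to 0.304; with a 10 kb window the latter was 0.28. Within CpG-rich promoters, an alternative chosen after seeing the data, the ratios were 0.74 for housekeeping, 1.16 for developmental and 0.964 for other tissues; the cause was not tested. Leaving out regions of more than 5 genes, or chemoreceptor genes from the background, was also added after seeing the data and kept housekeeping, kidney and developmental genes on their side of all genes; other-tissue genes were not run under the latter. The share of weaker regions with the midpoint inside the gene, 49.9%, was 44.7% with a 500 bp and 52.5% with a 2 kb window. No paired analysis was possible because the IgG samples were not analysed here and the WT1 samples form 1 group. Short lists limit every share, and without the depth, weak occupancy and shallow sequencing cannot be told apart.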

Other observations

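Other gene groups were added at shares between those of the classes. Of 127 kinase genes of the Map, Cdk, Stk and Prk families 15 were added (11.8%), against 10 with a reproducible region. Among them was Mapk3, which encodes the kinase ERK1 at the end of the receptor tyrosine kinase cascade. Its region had an IDR of 0.0553 with values of 0.00196 and 7.87e-05 in replicates 1 and 2. The cell cycle kinase genes Cdk6 and Cdk20 followed at 0.199 and 0.244.

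Solute carriers, the membrane transporters, gained 29 of 333 genes (8.71%), against 20 with a reproducible region. The mitochondrial iron importer gene Slc25a37 had an IDR of 0.0817 with 0.00358 and 5.01e-06, and the copper importer gene Slc31a1 had 0.109 with 0.00586 and 2.5e-05. Genes named Zfp gained 24 of 386 (6.22%), led by Zfp467 at 0.0645 with 0.00369 and 8.65e-16. Of 97 cytochrome P450 genes 1 was added, while 6 had a reproducible region. These shares stand beside the 6.88% of all genes, and none was tested.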
